A study of Mus musculus with 5 samples.

Results

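The comparison described here sets mouse embryonic stem cells labelled as overexpressing hexokinase 2 (Hk2) and pyruvate kinase M2 (Pkm2) against normal E14 cells, both after withdrawal of leukemia inhibitory factor (LIF). Each side is 1 sequencing library. Gene levels are FPKM (fragment counts divided by transcript length and by library size), summed over the RefSeq transcripts of a gene. A gene entered the comparison when it stood above 0 FPKM in both libraries, which held for 13062 of 21930 genes. The ratio is that of FPKM + 1 in the Hk2/Pkm2-labelled library over FPKM + 1 in the normal library, on the log2 scale, so that a positive value means higher in the Hk2/Pkm2-labelled library. Adding 1 shrinks the ratios of genes with low FPKM.

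The labels describe all cells as mouse E14 embryonic stem cells of strain C57BL/6, with E14 also entered as their developmental stage. The 2 libraries compared came from normal cells and from cells labelled as overexpressing Hk2 and Pkm2, both of which had spent 24 hours without LIF before LIF was added. How long LIF was then present is not stated in the sources used here, nor are the vector, its promoter, or whether the cells so labelled were 1 clone. The other 3 libraries give context: normal and Hk2/Pkm2-labelled cells cultured with LIF, and Hk2/Pkm2-labelled cells after 40 days without LIF. In what follows, "the labelled library" and "the normal library" are the pair after withdrawal, and values "with LIF" are given for normal cells first and labelled cells second.

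LIF acts through a gp130 receptor and the transcription factor STAT3, and holds mouse embryonic stem cells in naive pluripotency, the state of the early inner cell mass. When LIF is removed the cells move toward a primed, epiblast-like state, in which naive factors are lowered and genes such as Fgf5, Otx2 and Dnmt3b are raised. Hk2 and Pkm2 catalyse the first and the last step of glycolysis, the pathway on which pluripotent cells rely heavily.

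The depth behind the pair was estimated from the spacing of low FPKM values at about 37000000 fragments for the normal library and 36000000 for the labelled library. At that depth 3 fragments on a transcript of 1 kilobase correspond to about 0.08 and 0.082 FPKM. With 1 library a side the spread between replicates was not measured, so no difference below has a test or an error. In bulk RNA, fewer cells of a type and less RNA per cell cannot be told apart. The libraries were not strand-specific, so overlapping genes share reads that were not separated.

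Of the 13062 genes, 9168 had a mean of at least 1 FPKM over the 5 libraries and are called expressed below. The other 3894 had lower means. Most expressed genes were close to equal in the pair: 5229 of them, 57.0%, lay within 1.2-fold, the median log2 ratio was -0.024 with 4906 ratios below 0 and 4262 above, and 95% of ratios lay between -1.17 and 1.04. At least 2-fold higher in the labelled library were 249 genes (2.72%), and at least 2-fold lower were 350 genes (3.82%). At least 4-fold differences numbered 32 higher and 36 lower. The share of genes 2-fold different was 7.44% at a mean of 1 to 5 FPKM, 7.03% at 5 to 20, 5.29% at 20 to 100 and 3.77% at 100 or more. A further 327 genes reached the mean of 1 FPKM but were listed at 0 in 1 library of the pair, 168 of them in the normal library and 159 in the labelled library. They are not members, since such a 0 may be an estimate that failed.

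**Figure D1:**
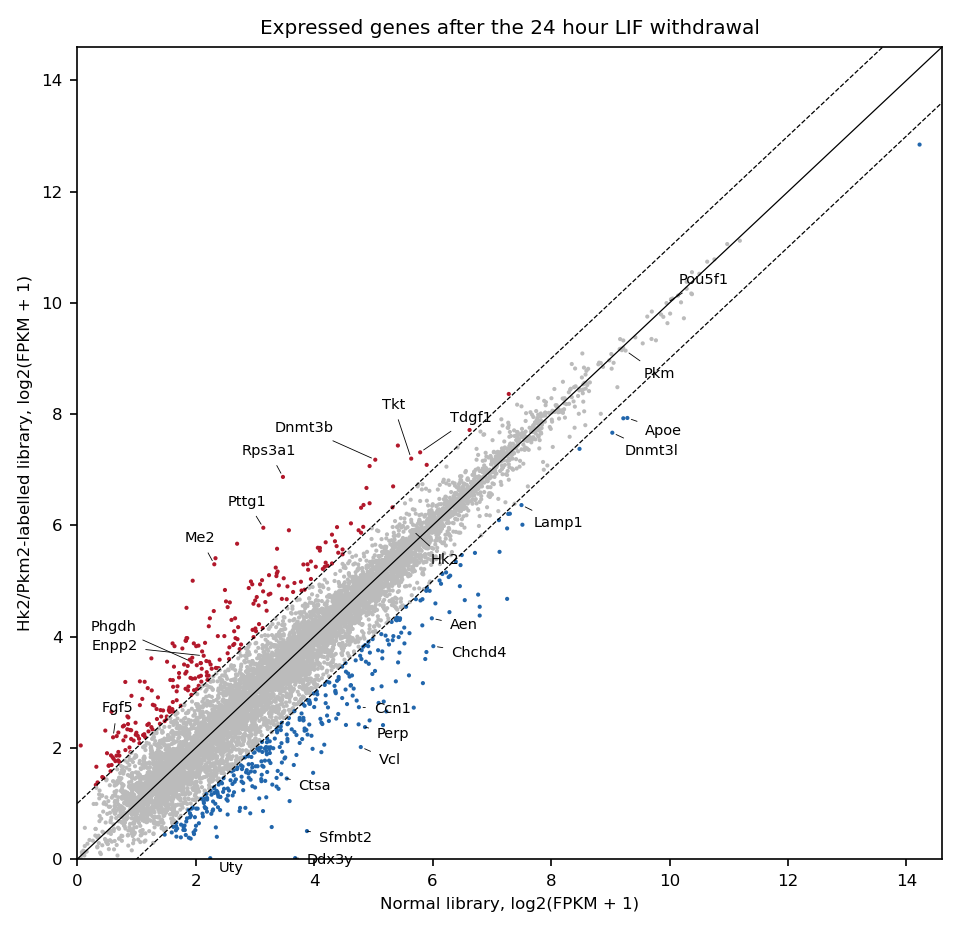
Level of each of the 9168 expressed genes in the normal library (x axis) and the Hk2/Pkm2-labelled library (y axis), both as log2(FPKM + 1), with 1 point per gene. The solid line marks equal levels and the dashed lines 2-fold differences; 249 genes lie above the upper dashed line and 350 below the lower one, while Hk2, Pkm and Pou5f1 lie between the lines. The isolated point at the upper right is Mir703, a microRNA gene at 19100 and 7360 FPKM.

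The cells kept the markers of embryonic stem cells on both sides, though not all at equal levels. Pou5f1, the central pluripotency factor, stood at 987 FPKM in the normal library and 1020 FPKM in the labelled library. Sox2, its partner, stood at 175 and 186 FPKM, and the 6 stem cell markers summed to 1480 and 1590 FPKM. Within that sum Sall4, at 61.1 and 30.8 FPKM (-0.96), and Tdgf1, at 54.3 and 158 FPKM (1.53), moved in opposite directions. A transcript of Sall4 listed at 0 in the labelled library made up 18.9 FPKM in the normal one. Hprt, the purine salvage gene that the E14Tg2a subline of E14 is known to lack, stood between 0.0644 and 0.4 FPKM in all 5 libraries. Hk2 lies on chromosome 6 from 82675019 to 82724448 and Pkm on chromosome 9 from 59504383 to 59527182 (mm9). Hk2 was at 49.7 FPKM in the normal and 59.0 FPKM in the labelled library, a log2 ratio of 0.24. Pkm was at 611 and 564 FPKM, a log2 ratio of -0.11, and its single table entry does not separate the M1 and M2 forms. Neither gene differed 2-fold in the direction of its label, so the labelled library is named by its label only. Whether reads of any introduced copies would count toward these entries is not stated in the sources used here.

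Genes of the primed epiblast had the highest median ratio of the lists with at least 5 expressed members at the settings used here. The germline list, at 0.33, came next, and it stood above the primed list under some other settings, at 0.85 against 0.16 where a mean of at least 5 FPKM was required. Of 28 genes, 25 were expressed members, with a median log2 ratio of 0.36 against -0.02 over all expressed genes. At least 2-fold higher were 6 of them, against 2.72% of all expressed genes, and at least 2-fold lower were 3, against 3.82%. At a threshold of 1.5-fold 10 were higher and 4 lower, where over all expressed genes 6.99% were 1.5-fold higher and 10.7% lower. With LIF the same 25 genes had a median of -0.05, none 2-fold higher and 3 lower.

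Fgf5, a secreted growth factor that marks the formative and primed epiblast, lies on chromosome 5 from 98683203 to 98706049. It stood at 0.52 FPKM in the normal library and 3.56 FPKM in the labelled library (log2 ratio 1.58), against 0.0685 and 0.0329 FPKM with LIF and 7.46 FPKM at 40 days. Both libraries after withdrawal were thus above both libraries with LIF, and the labelled one was the higher of the pair.

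Sall2, a zinc finger transcription factor, stood at 5.57 and 17.0 FPKM (log2 ratio 1.46), against 0.825 and 1.13 FPKM with LIF and 9.71 FPKM at 40 days. Enpp2, which encodes autotaxin, the enzyme that makes lysophosphatidic acid, stood at 3.39 and 11.6 FPKM (1.52), against 0.139 and 0.0734 FPKM with LIF and 5.94 FPKM at 40 days. Fgf15, an FGF ligand, stood at 11.7 and 30.2 FPKM (1.30), against 3.36 and 4.23 FPKM with LIF and 17.3 FPKM at 40 days. Pou3f1, a POU factor of the primed state also called Oct6, stood at 17.7 and 37.7 FPKM (1.05), against 4.18 and 5.78 FPKM with LIF and 21.7 FPKM at 40 days. In each of these genes the labelled library after withdrawal was the highest of the 5, and the libraries with LIF were the lowest. Vrtn (0.98), Lef1, a Wnt-responsive factor (0.83), and Pim2, a serine/threonine kinase (0.60), had the same order between the pair and the libraries with LIF. Otx2, the homeobox factor that drives the exit from the naive state, differed little, at 20.7 and 24.9 FPKM against 1.2 and 3.13 FPKM with LIF.

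Not all genes on the primed list were higher. Dnmt3l, the catalytically inactive partner of the de novo DNA methyltransferases, lies on chromosome 10 from 77504692 to 77526367 and stood at 523 and 202 FPKM (log2 ratio -1.36), against 327 and 279 FPKM with LIF and 255 FPKM at 40 days. The normal library after withdrawal held the highest of these 5 values and the labelled one the lowest. Dnmt3l overlaps Aire, and their reads were not separated. Cldn6, a tight junction claudin, stood at 34.5 and 11.2 FPKM (-1.55). Nodal, the TGF-beta family ligand of the epiblast, stood at 38.6 and 18.2 FPKM (-1.04), and its feedback inhibitor Lefty1 at 32.9 and 18.8 FPKM (-0.77).

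Dnmt3b, a de novo DNA methyltransferase, stood at 31.7 and 144 FPKM (log2 ratio 2.15), but at 35.8 and 11.2 FPKM with LIF (-1.60) and at 114 FPKM at 40 days. Of its 5 transcripts in the table, 2 had values above 0. The first stood at 31.7 and 71.2 FPKM in the pair, and the second was listed at 0 in the normal library and at 72.4 FPKM in the labelled one. Taking the highest transcript alone, the ratio was 1.14. Dnmt3a was listed at 0 in the normal library and stood at 12.4 FPKM in the labelled library, so it is not a member. The maintenance methyltransferase Dnmt1 stood at 61.4 and 58.1 FPKM and its cofactor Uhrf1 at 84.0 and 83.3 FPKM. Of 12 expressed genes of DNA methylation, 3 were 2-fold higher, against 2.72% of all expressed genes, and 1 was lower, against 3.82%. Their median of 0.20 came to -0.04 when a mean of at least 5 FPKM was required. The other higher genes were Mbd3, a subunit of the NuRD repressor complex, at 29.6 and 83.3 FPKM (1.46), and Mbd2, its methyl-binding relative, at 1.73 and 5.37 FPKM (1.22). Both were also higher in labelled cells with LIF, by 1.34 and 1.32 on the log2 scale.

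The FGF and ERK pathway showed no common direction. Among 21 expressed genes the median was 0.06, with 3 at least 2-fold higher and 2 lower, against 2.72% and 3.82% of all expressed genes. The ligand Fgf4, which acts on embryonic stem cells themselves, was level at 76.8 and 84.9 FPKM, while Fgf17 stood at 14.1 and 4.35 FPKM (-1.49). The receptor Fgfr1 stood at 5.27 and 16.1 FPKM (1.44), but 1 of its transcripts was listed at 0 in the normal library. The ERK feedback phosphatase Dusp6 stood at 44.6 and 45.8 FPKM and the ERK-responsive factor Etv5 at 101 and 99.2 FPKM. Spry1, a feedback inhibitor of receptor tyrosine kinases, stood at 3.23 and 7.4 FPKM (0.99), and Sos1, the exchange factor that loads Ras, at 6.12 and 2.55 FPKM (-1.0).

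In Nodal and BMP signalling, 25 genes were expressed with a median of -0.07. Tdgf1 (Cripto), the Nodal co-receptor, was its one 2-fold higher gene, and lies on chromosome 9 from 110842114 to 110848662. It stood at 54.3 and 158 FPKM (log2 ratio 1.53), against 133 and 212 FPKM with LIF and 35.9 FPKM at 40 days, so the normal library after withdrawal was below both libraries with LIF and the labelled one between them. Besides Nodal, Furin, a protease that processes Nodal and other proproteins, was 2-fold lower, at 3.33 and 0.762 FPKM (-1.30). Bmp4 was equal at 15 and 15.1 FPKM, and its target Id2 stood at 63.0 and 39.9 FPKM (-0.64). In Wnt signalling, 17 of 29 genes were expressed, with a median of 0.13 that came to -0.02 without the filter on low values. Porcn, the acyltransferase needed for Wnt secretion, stood at 1.93 and 5.42 FPKM (1.13), the receptor Fzd7 at 30.3 and 53 FPKM (0.78), and Axin2, a Wnt feedback gene, at 0.699 and 1.35 FPKM (0.47).

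**Figure D2:**
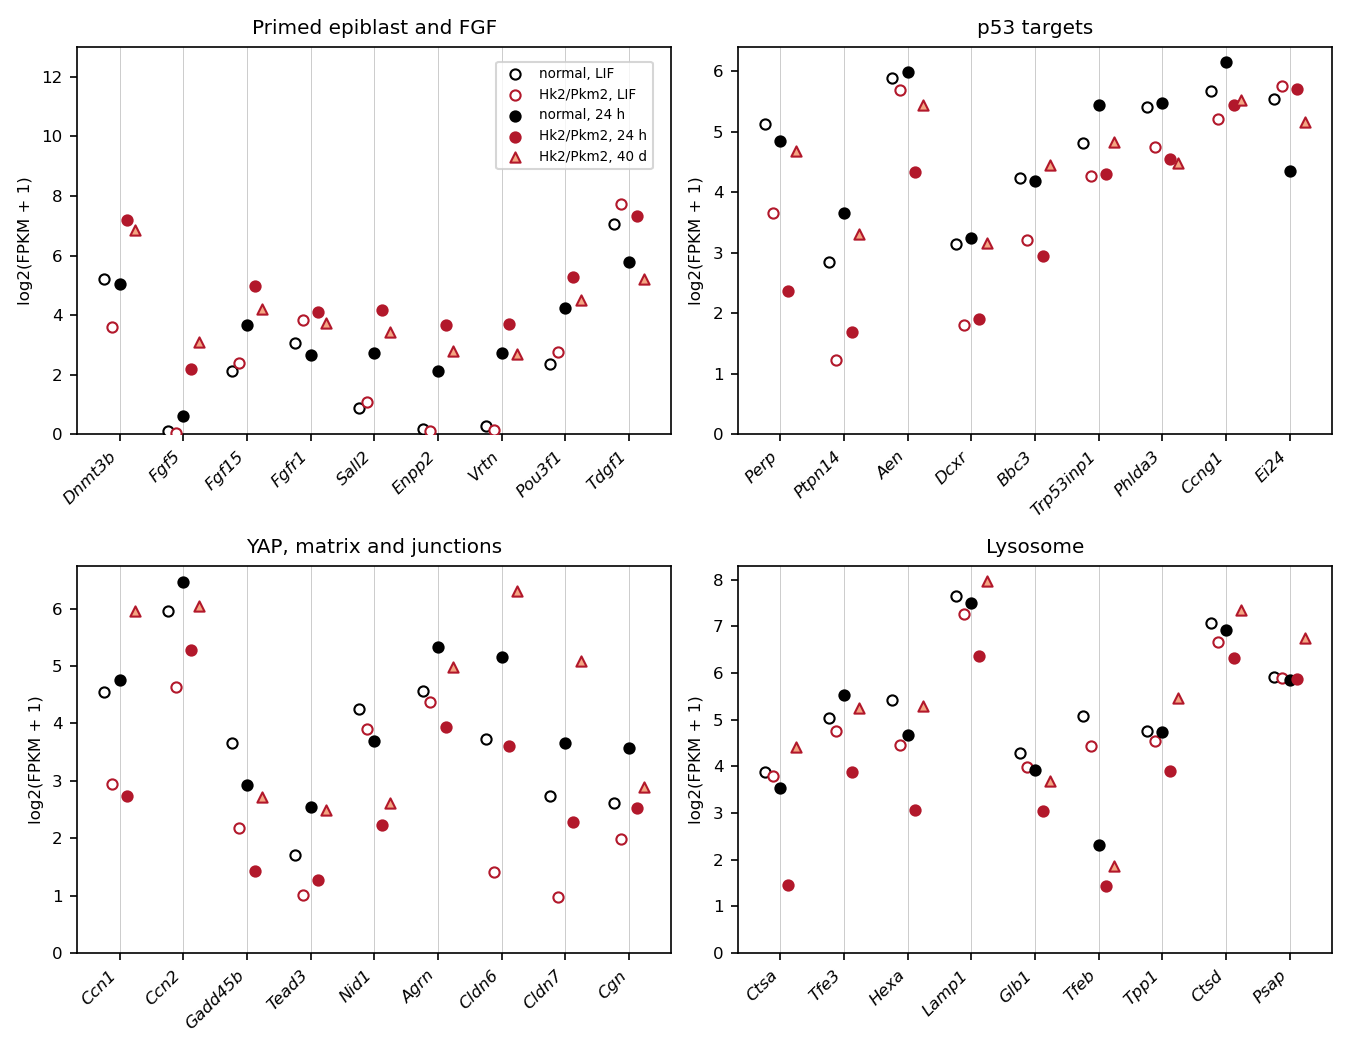
Level of 9 genes in each of 4 panels (primed epiblast and FGF, p53 targets, YAP with matrix and junctions, lysosome), as log2(FPKM + 1) on the y axis, with 1 symbol per library: open circles with LIF, filled circles after the 24 hour withdrawal, triangles at 40 days, black for normal and red for Hk2/Pkm2-labelled cells. Fgf5, Fgf15, Sall2, Enpp2, Vrtn and Pou3f1 have the filled red circle above the filled black one and both above the open circles, while in the other 3 panels the filled red circle lies below the filled black one in every gene drawn except Ei24, where it lies above, and Psap, where they are level.

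Targets of LIF and STAT3 had a median ratio below that of all expressed genes. It was -0.34 over 20 expressed genes of 23, with 16 below 0 and 4 above, where 4906 of all 9168 expressed genes were below 0. Of the 20 genes, 2 were at least 2-fold lower, against 3.82% of all expressed genes, and none was 2-fold higher, against 2.72%. With LIF the median of the same genes was -0.08. Junb, an AP-1 subunit that LIF induces at once, lies on chromosome 8 from 87500811 to 87502617 and stood at 13.3 and 5.76 FPKM (-1.09), against 64.0 and 33.6 FPKM with LIF and 21.8 FPKM at 40 days. Icam1, an adhesion molecule, stood at 10.7 and 3.47 FPKM (-1.38), against 29.8 and 22 FPKM with LIF and 18.9 FPKM at 40 days. For both genes the labelled library after withdrawal was the lowest of the 5, at least 2-fold below each of the others.

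The feedback inhibitor Socs3 was low on both sides, at 2.25 and 0.97 FPKM (-0.72), against 65.3 and 64.8 FPKM with LIF. Bcl3, an IkB family protein, followed the same course, at 2.77 and 1.0 FPKM (-0.91) against 49.8 and 34.9 FPKM. Stat3 stood at 6.26 and 5.28 FPKM, the receptor subunit Il6st (gp130) at 3.16 and 2.65 FPKM, Pim3 at 45.5 and 34.7 FPKM and Klf4 at 5.48 and 6.66 FPKM. The LIF receptor Lifr was listed at 0 in both libraries, against 2.96 and 9.85 FPKM with LIF. The kinase Jak1 was listed at 0 in the normal library and stood at 8.83 FPKM in the labelled one, so Lifr and Jak1 are not members. Sgk1, a serum- and glucocorticoid-regulated kinase, was the 1 gene of the list at least 1.5-fold higher, at 68.6 and 105 FPKM (0.61).

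The promoters of Socs3 and Icam1 are shown because they are the 2 of the 4 genes at least 1.5-fold lower that carry a STAT-type palindrome, TTCNNNGAA (its own reverse complement), in the 250 bases before the annotated start. The sequences are those of RefSeq on GRCm38.p6, 5′ to 3′ on the strand of the gene, with the palindrome in capitals. The windows are chr11:117969367-117969616 on the minus strand for Socs3 and chr9:21015690-21015939 on the plus strand for Icam1, and the palindrome begins 154 and 42 bases before the start.
Socs3: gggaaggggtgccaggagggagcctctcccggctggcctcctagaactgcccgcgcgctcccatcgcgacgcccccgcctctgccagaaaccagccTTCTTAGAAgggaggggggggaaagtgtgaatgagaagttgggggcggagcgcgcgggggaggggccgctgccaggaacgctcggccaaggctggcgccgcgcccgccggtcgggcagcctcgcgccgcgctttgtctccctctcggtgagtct
Icam1: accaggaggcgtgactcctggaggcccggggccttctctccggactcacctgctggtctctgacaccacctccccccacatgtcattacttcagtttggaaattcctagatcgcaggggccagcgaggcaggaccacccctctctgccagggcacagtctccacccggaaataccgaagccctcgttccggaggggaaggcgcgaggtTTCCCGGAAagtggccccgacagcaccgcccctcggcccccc
Over all promoter windows of this length 8.13% of 27025 genes held the palindrome, and 6.76% of the expressed genes with a window. On the LIF list it was found in 3 of 20 genes (15%), the third being Sgk1, which was higher in the labelled library. A match of letters is a description and does not show binding.

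The naive pluripotency list had a median nearer to 0. Over 23 expressed genes of 25 the median was -0.12. Dppa3 and Tfap2c were 2-fold lower and Tdgf1 was higher, where 3.82% of all expressed genes were lower and 2.72% higher. Dppa3 (Stella), a maternal factor that limits DNA methylation, stood at 4.81 and 1.07 FPKM (-1.49), against 6.15 and 1.49 FPKM with LIF and 0.542 FPKM at 40 days, so the labelled library was lower by about the same ratio in both cultures. Tfap2c, an AP-2 factor shared with trophoblast and germ cells, stood at 2.47 and 0.491 FPKM (-1.22). Klf2 stood at 78.2 and 43.1 FPKM (-0.84), whereas with LIF it had stood at 137 and 200 FPKM. Esrrb, Tfcp2l1 and Nr0b1 had ratios of -0.44, -0.40 and -0.34. Nanog stood at 59.3 and 54.5 FPKM, and Zfp42 (Rex1) at 118 and 128 FPKM. Of the 14 expressed core pluripotency genes, Tdgf1 was 2-fold different and 10 lay above 0, with a median of 0.04.

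The p53 target list had one of the lowest medians, -0.42 over 32 expressed genes of 34, with 27 below 0 and 5 above, against 4906 of 9168 below 0 over all expressed genes. At least 2-fold lower were 6 genes, against 3.82% of all expressed genes, and at least 1.5-fold lower were 12, against 10.7%. On this list 1 gene was higher at either threshold, against 2.72% and 6.99%. With LIF the median of the same genes was -0.20, and 7 of them were 2-fold lower.

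Perp, a desmosomal membrane protein that p53 induces in apoptosis, lies on chromosome 10 from 18564877 to 18576879. It stood at 28.0 and 4.18 FPKM (log2 ratio -2.48), against 34.0 and 11.7 FPKM with LIF and 24.8 FPKM at 40 days. Ptpn14, a phosphatase that also restrains YAP, stood at 11.6 and 2.23 FPKM (-1.96), against 6.24 and 1.34 FPKM with LIF and 8.97 FPKM at 40 days. In both genes the labelled libraries of the 2 shorter cultures were low and the 40 day labelled library was near the normal ones. Dcxr, a carbonyl reductase, and Bbc3 (Puma), a pro-apoptotic BH3-only protein, had that order too. Dcxr stood at 8.52 and 2.75 FPKM (-1.35), against 7.84 and 2.51 FPKM with LIF and 8.0 FPKM at 40 days. Bbc3 stood at 17.3 and 6.7 FPKM (-1.25), against 17.8 and 8.24 FPKM with LIF and 20.8 FPKM at 40 days.

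Aen, an apoptosis-enhancing nuclease, had a ratio of -1.66, and with LIF stood at 58.5 and 50.5 FPKM. The difference lay in 1 of its 2 transcripts, at 51.2 and 6.52 FPKM, while the other stood at 11.3 and 12.5 FPKM. Trp53inp1, which amplifies p53 signalling, stood at 42.4 and 18.8 FPKM (-1.13). Phlda3, a repressor of Akt, stood at 43.6 and 22.4 FPKM (-0.93), Btg2, an antiproliferative factor, at 10.9 and 5.41 FPKM (-0.89) and Ccng1, a cyclin G, at 70.4 and 42.7 FPKM (-0.71). Other well-known targets differed less. The cell cycle inhibitor Cdkn1a (p21) stood at 13.9 and 9.1 FPKM (-0.56), the p53 ubiquitin ligase Mdm2 at 26.3 and 19.2 FPKM (-0.44) and the pore-forming Bax at 146 and 148 FPKM (0.02). Trp53 itself stood at 196 and 163 FPKM (-0.27). Ei24 was the 2-fold higher gene, at 19.4 and 51.5 FPKM (1.37), with 1 of its transcripts listed at 0 in the normal library.

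Targets of the Hippo effector YAP and its DNA-binding partners of the TEAD family were low in part. Among 20 expressed genes of 28 the median was -0.32, with 14 below 0, where 4906 of all 9168 expressed genes were below 0. At least 2-fold lower were 5, against 3.82% of all expressed genes, and 1, the exchange factor Arhgef17, was higher, against 2.72%. Ccn1 (Cyr61), a secreted matricellular protein, lies on chromosome 3 from 145309935 to 145312949 and stood at 26 and 5.64 FPKM (-2.02), against 22.4 and 6.66 FPKM with LIF and 61.0 FPKM at 40 days. Ccn2 (CTGF), its relative, stood at 87.7 and 38.0 FPKM (-1.19), against 61.4 and 23.8 FPKM with LIF and 65.4 FPKM at 40 days. In both genes all 3 values for normal cells and for the 40 day culture were above both shorter labelled cultures. Gadd45b, a stress sensor, stood at 6.6 and 1.69 FPKM (-1.50) and at 11.6 and 3.51 FPKM with LIF. Tead3 itself stood at 4.82 and 1.41 FPKM (-1.27). The fifth lower gene is Ptpn14, which is also on the p53 list. Yap1 stood at 43.3 and 30.7 FPKM (-0.48), its paralogue Wwtr1 (TAZ) at 6.9 and 5.23 FPKM (-0.34), and Tead2 at 34.4 and 45 FPKM (0.38).

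The promoters of Ccn1 and Ptpn14 are printed as members of this list that carry a TEAD-type hexamer, GGAATG or its reverse complement CATTCC, in capitals. The windows are chr3:145649986-145650235 on the minus strand for Ccn1 and chr1:189728018-189728267 on the plus strand for Ptpn14 (RefSeq, GRCm38.p6, 5′ to 3′ on the strand of the gene). The hexamer begins 103 and 146 bases before the start.
Ccn1: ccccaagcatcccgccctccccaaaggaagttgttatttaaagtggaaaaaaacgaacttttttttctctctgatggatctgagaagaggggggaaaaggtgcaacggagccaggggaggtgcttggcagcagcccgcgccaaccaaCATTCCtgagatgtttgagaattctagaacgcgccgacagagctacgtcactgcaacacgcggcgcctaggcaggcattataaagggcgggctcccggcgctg
Ptpn14: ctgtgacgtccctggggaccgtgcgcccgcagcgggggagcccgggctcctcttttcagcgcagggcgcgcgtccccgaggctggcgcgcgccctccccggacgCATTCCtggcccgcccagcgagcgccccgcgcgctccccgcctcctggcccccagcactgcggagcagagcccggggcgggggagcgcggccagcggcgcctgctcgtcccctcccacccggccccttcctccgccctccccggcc
The hexamer on either strand was found in 14.4% of the 27025 genes' windows, in 12.4% of those of expressed genes and in 10 of the 20 windows of the whole list (50%). Of the expressed genes with a window, 3 of the 4 that were at least 1.5-fold lower carried it (Tead3 and the 2 genes printed), and so did 4 of 9 others.

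Actin cytoskeleton genes and targets of the serum response factor SRF had a median of -0.24 over 35 expressed genes of 37. At least 2-fold lower were 5, against 3.82% of all expressed genes, and at least 1.5-fold lower were 14, against 10.7%. None was 1.5-fold higher, against 6.99%. Tln1 (talin), which links integrins to actin, stood at 18 and 4.59 FPKM (-1.77), against 10.4 and 8.61 FPKM with LIF. S100a10 and Anxa2, partners in an annexin complex at the membrane, stood at 138 and 67.3 FPKM (-1.02) and at 15.6 and 7.76 FPKM (-0.92). S100a11 stood at 35.9 and 15.2 FPKM (-1.19) and Cald1 (caldesmon) at 9.94 and 4.47 FPKM (-1.0). Myl9, a myosin light chain, stood at 5.44 and 2.23 FPKM (-0.99). Vcl (vinculin) had the lowest ratio of the list, -2.77, but stood at 1.63 and 14.1 FPKM with LIF, the opposite order. Srf itself (19.5 and 19.7 FPKM), Actb (1320 and 1150 FPKM), Actg1 (444 and 475 FPKM) and Flna (95.5 and 83.0 FPKM) differed by at most 1.2-fold.

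Tight junction and adhesion genes had the lowest median of the larger lists, -0.44 over 36 expressed genes of 44. In this list 7 genes were 2-fold lower and 1 was higher, against 3.82% and 2.72% of all expressed genes. At least 1.5-fold lower were 15 and higher 2, against 10.7% and 6.99%. With LIF the median of the list was -0.45. Cldn6, on chromosome 17 from 23816332 to 23819413, had stood at 12.2 and 1.66 FPKM with LIF and reached 78.7 FPKM at 40 days. Cldn7 stood at 11.7 and 3.88 FPKM (-1.38), against 5.66 and 0.959 FPKM with LIF and 32.9 FPKM at 40 days. Both claudins were thus lower in labelled than in normal cells in each shorter culture, and highest at 40 days. Patj, a polarity scaffold, stood at 3.15 and 0.563 FPKM (-1.41), the membrane protease St14 (matriptase) at 6.27 and 2.03 FPKM (-1.26) and its inhibitor Spint2 at 137 and 75.4 FPKM (-0.85). The junction plaque protein Cgn (cingulin) stood at 10.9 and 4.8 FPKM (-1.04). Tgm1, a transglutaminase, stood at 34.8 and 4.31 FPKM (-2.75), against 32.2 and 35.9 FPKM with LIF and 4.34 FPKM at 40 days. E-cadherin (Cdh1) stood at 125 and 94.4 FPKM (-0.40) and Epcam at 88.1 and 63.8 FPKM (-0.46). Esrp1, an epithelial splicing regulator, was the 2-fold higher gene at 2.97 and 8.51 FPKM (1.26), and F11r, a junctional adhesion molecule, stood at 7.99 and 15.3 FPKM (0.86), but at 21.1 and 1.94 FPKM with LIF (-2.91).

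Basement membrane and integrin genes had a median of -0.31 over 23 expressed genes of 27. Below 0 were 18, where 4906 of all 9168 expressed genes were below 0, and at least 2-fold lower were 4, against 3.82%. Nid1 (nidogen), which bridges laminin and collagen IV, stood at 12 and 3.69 FPKM (-1.47), against 18 and 13.9 FPKM with LIF. The proteoglycan agrin (Agrn) stood at 39.1 and 14.3 FPKM (-1.39), against 22.8 and 19.7 FPKM with LIF. Lama1, the embryonic laminin alpha chain, stood at 2.52 and 0.436 FPKM (-1.29), against 17.4 and 23.9 FPKM with LIF and 77.3 FPKM at 40 days. The other chains of that laminin were level, Lamb1 at 22.4 and 20.1 FPKM and Lamc1 at 47.3 and 46.7 FPKM. The integrins Itga3, at 21.8 and 11 FPKM (-0.93), and Itga5, at 20.9 and 13.2 FPKM (-0.62), were at least 1.5-fold lower, and their beta chain Itgb1 stood at 80.5 and 58.2 FPKM (-0.46). The matrix protein Sparc stood at 50.3 and 5.6 FPKM in the pair, but it was listed at 0 in the normal library with LIF and at 40 days. Itga6 and Hspg2 were listed at 0 in the labelled library, at 16.2 and 21.9 FPKM in the normal one, and are not members.

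**Figure D3:**
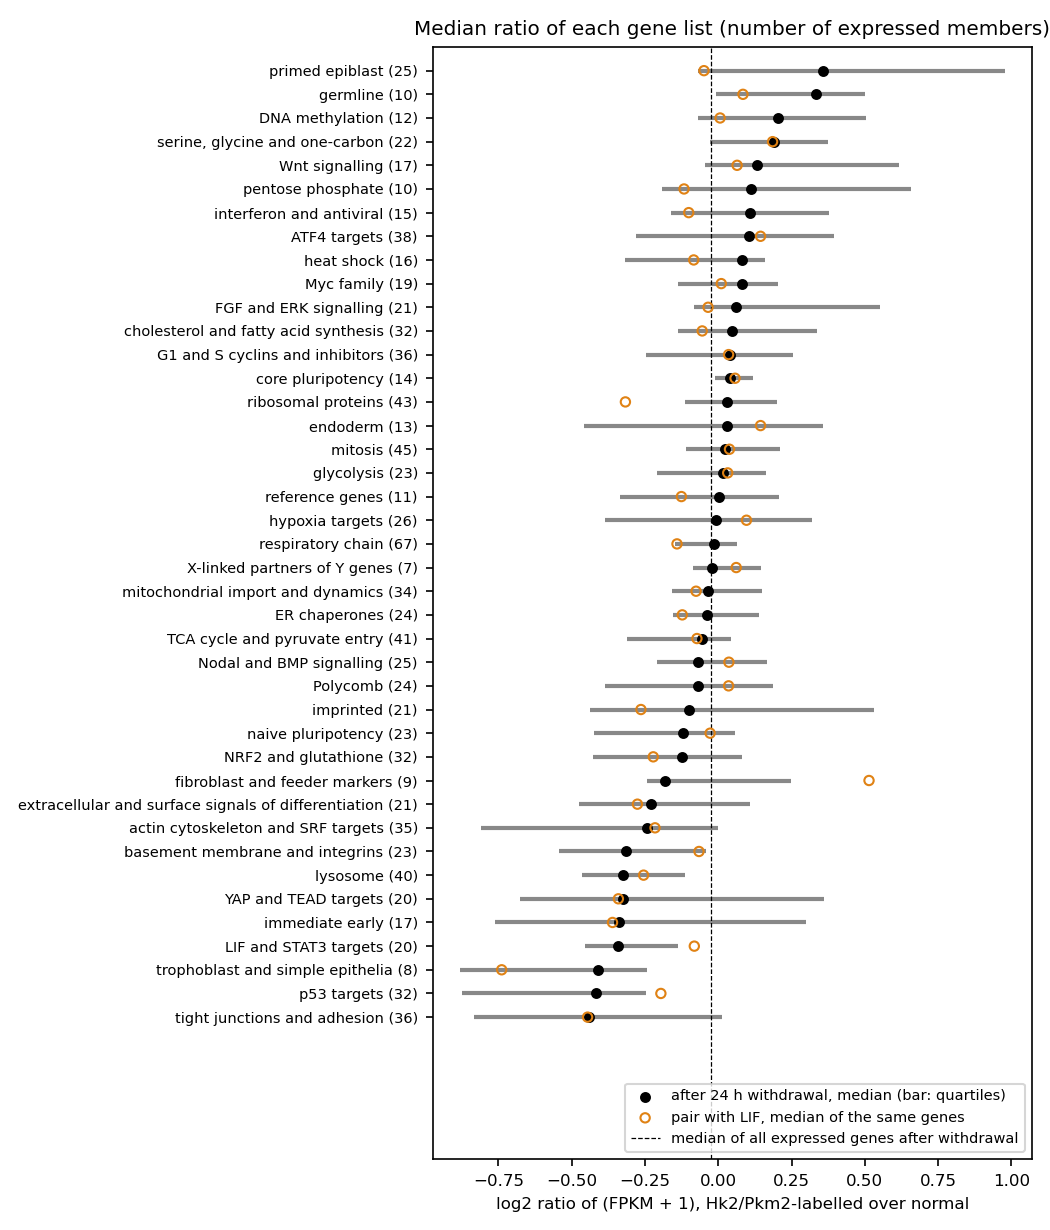
Median log2 ratio of each gene list with at least 5 expressed members (black dots, with the quartiles as grey bars), the median of the same genes in the pair with LIF (open orange circles) and the median of all expressed genes after withdrawal, -0.024 (dashed line). Primed epiblast genes are at the top at 0.36, and p53 targets and tight junction genes at the bottom at -0.42 and -0.44; the primed epiblast median with LIF was -0.05.

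Lysosomal genes also had a median ratio below that of all expressed genes, of whose 9168 ratios 4906 were below 0. Of 40 expressed genes of 43, 34 had a ratio below 0 and the median was -0.32, with quartiles of -0.47 and -0.11. At least 2-fold lower were 4, against 3.82% of all expressed genes, and at least 1.5-fold lower were 8, against 10.7%. None was higher at either threshold, against 2.72% and 6.99%. With LIF the median was -0.26, with 1 gene 2-fold higher and 1 lower.

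Lamp1, the most abundant lysosomal membrane glycoprotein, lies on chromosome 8 from 13159135 to 13175338. It stood at 180 and 81.4 FPKM (log2 ratio -1.14), against 198 and 153 FPKM with LIF and 249 FPKM at 40 days. Hexa, the hexosaminidase alpha chain that degrades gangliosides, stood at 24.4 and 7.37 FPKM (-1.60), against 41.7 and 21.1 FPKM with LIF and 37.9 FPKM at 40 days. For both genes the labelled library after withdrawal was the lowest of the 5. The protease Tpp1 stood at 25.8 and 14.0 FPKM (-0.84), the beta-galactosidase Glb1 at 14.2 and 7.25 FPKM (-0.88) and the aspartic protease Ctsd at 120 and 79.2 FPKM (-0.60). Tfe3 and Tfeb, the basic helix-loop-helix factors that activate lysosomal genes, were on the list as well. Tfe3, an X-linked gene from 7339686 to 7352328, stood at 45 and 13.7 FPKM (-1.65), against 31.7 and 26.2 FPKM with LIF and 37.2 FPKM at 40 days. The main one of its 2 transcripts stood at 40.0 and 6.36 FPKM and the other at 4.96 and 7.31 FPKM. Tfeb stood at 3.94 and 1.69 FPKM (-0.88), against 32.9 and 20.7 FPKM with LIF. Ctsa, a carboxypeptidase that protects lysosomal hydrolases, stood at 10.6 and 1.73 FPKM (-2.09), against 13.7 and 12.8 FPKM with LIF, but a transcript above 0 only in the normal library made up 4.73 of its 10.6 FPKM.

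Other lysosomal genes were close to equal. Psap, the saposin precursor, stood at 56.7 and 57.1 FPKM, and the cysteine proteases Ctsz and Ctsl at 32.8 and 32.8 FPKM and at 58.9 and 63.9 FPKM. Ctsb stood at 19.7 and 14.8 FPKM (-0.39). Among subunits of the proton pump, Atp6v0b stood at 51.0 and 35.2 FPKM (-0.52), Atp6v0d1 at 89.1 and 68.1 FPKM (-0.38) and Atp6v1a at 25.9 and 30.2 FPKM (0.22).

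Lysosomal promoters often carry the hexamer CACGTG (its own reverse complement), the core of the element bound by Tfeb and Tfe3. The windows of the 3 lower genes with the hexamer nearest to the start or in more than 1 copy are printed with it in capitals (RefSeq, GRCm38.p6, 5′ to 3′ on the strand of the gene). They are chr8:13158911-13159160 on the plus strand for Lamp1, chr7:142387828-142388077 on the minus strand for Ctsd and chr2:164833523-164833772 on the plus strand for Ctsa.
Lamp1: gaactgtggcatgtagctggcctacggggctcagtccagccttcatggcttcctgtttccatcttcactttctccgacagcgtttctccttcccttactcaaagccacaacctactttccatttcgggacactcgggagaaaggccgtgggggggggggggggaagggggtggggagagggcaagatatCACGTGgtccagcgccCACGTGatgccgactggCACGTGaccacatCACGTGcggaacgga
Ctsd: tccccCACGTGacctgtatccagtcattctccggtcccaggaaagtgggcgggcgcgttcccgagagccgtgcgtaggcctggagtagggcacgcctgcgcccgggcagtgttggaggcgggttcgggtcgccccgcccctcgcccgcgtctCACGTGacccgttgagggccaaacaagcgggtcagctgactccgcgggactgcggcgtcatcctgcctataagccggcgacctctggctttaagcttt
Ctsa: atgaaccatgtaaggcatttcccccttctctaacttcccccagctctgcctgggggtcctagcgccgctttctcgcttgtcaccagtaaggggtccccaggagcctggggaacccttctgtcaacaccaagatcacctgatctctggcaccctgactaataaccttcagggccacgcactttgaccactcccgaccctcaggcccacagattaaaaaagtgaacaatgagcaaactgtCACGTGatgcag
Lamp1 has 4 copies, the farthest beginning 61 bases before the start, Ctsd has 2, at 245 and 98 bases, and Ctsa has 1, at 12 bases, in 1 of its 2 annotated windows. The hexamer was in 6.86% of the 27025 genes' windows and 10.6% of those of expressed genes, and in 11 of the 34 lysosomal genes with a window (32.4%). Among these genes, 4 of the 8 at least 1.5-fold lower carried it, Glb1 being the fourth, and so did 7 of 23 others, among them Ctsl and Atp6v1a, which were not lower.

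The expressed genes of glycolysis, the pathway to which Hk2 and Pkm2 belong, were nearly level as a list. The 23 expressed genes of 32 on the list, which leaves out Hk2 and Pkm, had a median of 0.02. At least 2-fold higher was 1, against 2.72% of all expressed genes, and none was lower, against 3.82%. The enolase Eno1 was listed at 0 in all 5 libraries and is not a member. Gpi1 was left out because a transcript had a hyphen in place of a value. Gapdh stood at 576 and 577 FPKM, Aldoa at 831 and 918 FPKM and Tpi1 at 226 and 257 FPKM. Lactate dehydrogenase A (Ldha) stood at 519 and 450 FPKM. The glucose transporters Slc2a1, at 113 and 113 FPKM, and Slc2a3, at 52.1 and 38.0 FPKM, were within 1.5-fold of each other in the pair. Slc16a3, which exports lactate, was the 2-fold higher gene at 27.4 and 61.8 FPKM (1.14), against 11.9 and 29.3 FPKM with LIF and 23.8 FPKM at 40 days. The isozymes Ldhb, at 44.2 and 22.6 FPKM (-0.94), and Eno3, at 31.4 and 17.2 FPKM (-0.83), were at least 1.5-fold lower. Eno3 overlaps Pfn1, and the reads of these genes were not separated.

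In the pentose phosphate pathway, which branches from glycolysis and feeds nucleotide synthesis, 10 genes were expressed with a median of 0.11. At least 2-fold higher were 2 of them, against 2.72% of all expressed genes, and none was lower, against 3.82%. With a mean of at least 5 FPKM required, the median was -0.03. Tkt, the transketolase that returns pentoses to glycolysis, lies on chromosome 14 from 31361545 to 31387908. It stood at 48.8 and 146 FPKM (1.56), against 51.6 and 60.5 FPKM with LIF and 48.6 FPKM at 40 days. The labelled library after withdrawal stood alone in this gene, at least 2-fold above each of the other 4. Prps2 and Prps1, which make phosphoribosyl pyrophosphate, stood at 21.3 and 43.6 FPKM (1.0) and at 23.2 and 40.0 FPKM (0.76). The entry enzyme G6pdx stood at 32.8 and 27.3 FPKM, Pgd at 77.4 and 75.8 FPKM and Taldo1 at 87.6 and 112 FPKM.

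Serine, glycine and one-carbon genes had a median of 0.19 over 22 expressed genes of 28. At least 2-fold higher was 1, against 2.72% of all expressed genes, and at least 1.5-fold higher were 4, against 6.99%. None was lower at either threshold, against 3.82% and 10.7%. With LIF the median was 0.19 as well. Phgdh, the first enzyme of serine synthesis from glycolytic 3-phosphoglycerate, lies on chromosome 3 from 98117093 to 98143913. It stood at 2.81 and 10.7 FPKM (1.62), against 9.16 and 16.2 FPKM with LIF and 17.6 FPKM at 40 days, so the normal library after withdrawal was the low one of the 5. Psat1, the next enzyme, stood at 52.7 and 103 FPKM (0.96) and the mitochondrial Shmt2 at 60.6 and 97.4 FPKM (0.68), while Psph stood at 16.9 and 20.7 FPKM (0.28). The mitochondrial folate enzymes Mthfd2l, at 1.44 and 3.62 FPKM (0.92), and Mthfd2, at 36.2 and 48.0 FPKM (0.40), were higher, and the cytosolic Mthfd1 stood at 108 and 77.3 FPKM (-0.48).

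The tricarboxylic acid cycle and pyruvate entry list had a median of -0.06 over 41 expressed genes of 42. Me2, the mitochondrial malic enzyme, was its 2-fold higher gene at 3.97 and 38.4 FPKM (2.99), against 9.97 and 3.31 FPKM with LIF and 7.28 FPKM at 40 days, so the high value was in the labelled library after withdrawal alone. Suclg2, a succinate-CoA ligase subunit, stood at 9.09 and 3.49 FPKM (-1.17), against 2.59 and 2.31 FPKM with LIF. Citrate synthase (Cs) and Mdh2 differed by less than 1.2-fold. Idh2 stood at 31.2 and 17.1 FPKM (-0.83), Ogdh at 7.05 and 13.7 FPKM (0.87) and Dlat, a pyruvate dehydrogenase subunit, at 13.4 and 23.1 FPKM (0.74).

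Cholesterol and fatty acid synthesis had a median of 0.05 over 32 expressed genes. Its 2-fold higher gene was Fads2, a fatty acid desaturase, at 10.7 and 28.9 FPKM (1.36), and its neighbour in function Fads1 stood at 13.2 and 20.8 FPKM (0.62). Idi1, an early isoprenoid enzyme, stood at 53.7 and 28.2 FPKM (-0.91). Apoe, a lipid carrier, stood at 624 and 243 FPKM (-1.36), against 969 and 485 FPKM with LIF and 290 FPKM at 40 days.

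Hypoxia targets had a median of -0.01 over 26 expressed genes, with Mxi1, a Myc antagonist, at 0.798 and 4.92 FPKM (1.72) and Ankrd37 at 1.06 and 3.48 FPKM (1.12). The mitophagy receptor Bnip3l stood at 36.3 and 17.9 FPKM (-0.98), while Hif1a and Pdk1 were level.

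Stress pathways were mixed. The ATF4 targets, genes of the amino acid response, had a median of 0.10 over 38 expressed genes. At least 2-fold higher were 2, against 2.72% of all expressed genes. At least 1.5-fold higher were 8, against 6.99%, and at least 1.5-fold lower were 4, against 10.7%. Slc7a3, a cationic amino acid transporter, was at 58.7 and 135 FPKM (1.18), with 58.0 and 52.7 FPKM with LIF, and the other 2-fold higher gene is Phgdh. Slc7a1, its relative, stood at 6.11 and 11.6 FPKM (0.82). Slc38a2, a glutamine transporter, stood at 149 and 84.3 FPKM (-0.82), and the tRNA synthetases Aars and Sars had ratios of -0.79 and -0.87. Atf4 itself stood at 127 and 93.0 FPKM (-0.44). In the NRF2 and glutathione list the median was -0.12 over 32 expressed genes, with Tkt, shared with the pentose list, 2-fold higher and none lower. Nqo1, a quinone reductase, stood at 40.5 and 22.1 FPKM (-0.85), the sulfiredoxin Srxn1 at 13.1 and 7.78 FPKM (-0.68) and the peroxiredoxin Prdx1 at 336 and 215 FPKM (-0.64), while Hmox1 (189 and 205 FPKM) and Gclm (83.2 and 77.0 FPKM) were close to equal.

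Among ER chaperones (24 expressed, median -0.04), the binding protein Hspa5 stood at 197 and 185 FPKM and Hsp90b1 at 215 and 236 FPKM. Mydgf, a secreted growth factor, stood at 8.43 and 33.4 FPKM (1.87), against 6.19 and 34.1 FPKM with LIF and 31.1 FPKM at 40 days, so that all 3 labelled libraries were high and both normal ones low. Edem1, which sends misfolded glycoproteins to degradation, stood at 1.14 and 6.36 FPKM (1.78), and Canx (calnexin) at 68.4 and 31.2 FPKM (-1.11). Heat shock genes had a median of 0.08 over 16 expressed genes, and none was 2-fold different.

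Proliferation genes were close to level. Mitosis genes had a median of 0.02 over 45 expressed genes of 46 and G1 and S phase genes of 0.04 over 36 of 39. Pttg1 (securin), the inhibitor of chromatid separation, lies on chromosome 11 from 43233752 to 43239753 and stood at 7.82 and 61.1 FPKM (2.82), against 8.12 and 58.9 FPKM with LIF and 16.6 FPKM at 40 days. The other 2-fold higher mitotic gene was Sgo1, which protects centromeric cohesin, at 7.76 and 16.8 FPKM (1.02). Plk1, Aurkb and Cdk1 differed by less than 1.2-fold. Cdc6, a licensing factor for replication origins, stood at 2.49 and 10.3 FPKM (1.69), with the normal library after withdrawal the lowest of the 5. Gmnn (geminin), an inhibitor of licensing, stood at 70.7 and 33.9 FPKM (-1.04), against 76.9 and 38.0 FPKM with LIF. Mcm5 and Mcm7, subunits of the replicative helicase, stood at 142 and 239 FPKM (0.75) and at 40.2 and 66.5 FPKM (0.71). Cdkn1b (p27) stood at 18.8 and 10.8 FPKM (-0.75) and Rb1 at 6.82 and 3.36 FPKM (-0.84). Of the Myc family (19 expressed, median 0.08), Myc stood at 53.8 and 48.8 FPKM and Mycn at 49.0 and 35.7 FPKM, and Odc1, the Myc-responsive ornithine decarboxylase, at 53.1 and 106 FPKM (0.99).

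Nuclear genes of the respiratory chain were level too, with a median of -0.02 over 67 expressed genes of 71. At least 2-fold higher were 2, against 2.72% of all expressed genes, and lower were 2, against 3.82%. Uqcrb, a complex III subunit, stood at 9.33 and 34.2 FPKM (1.77), where the other 3 libraries held 32.7 to 40.0 FPKM, so the normal library was the low one. Ndufb2, a complex I subunit, stood at 87.0 and 29.0 FPKM (-1.55), where the other 3 libraries held at least 73.9 FPKM, so here the labelled library was the low one. Cox7a2l and Ndufs8, the other 2, were listed at 0 in a library with LIF. In mitochondrial import and dynamics (34 expressed, median -0.03), Chchd4 (Mia40), the oxidative import factor of the intermembrane space, stood at 63.5 and 13.2 FPKM (-2.18). With LIF its values were 72.7 and 13.3 FPKM, and 12.8 FPKM was reached at 40 days, so all 3 labelled libraries were low and both normal ones high. It lies on chromosome 6 from 91414270 to 91423417. The fusion factors Mfn1 and Mfn2 had opposite ratios, 2.02 at 2.42 and 12.8 FPKM and -1.10 at 8.2 and 3.29 FPKM.

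Cytosolic ribosomal proteins had a median of 0.03 over 43 expressed genes of 66. At least 2-fold lower were 2, against 3.82% of all expressed genes. Rps3 stood at 595 and 242 FPKM (-1.29) and Rps24 at 76.9 and 20.7 FPKM (-1.85). Rps3a1, which is not on that list, stood at 10.1 and 116 FPKM (3.40), the highest ratio among expressed genes above 0 in all 5 libraries. Clone names and small RNAs were left out of that ranking. With LIF Rps3a1 stood at 124 and 10.2 FPKM, the reverse order, and at 124 FPKM at 40 days. Ribosomal protein genes have near-identical processed copies, and how fragments that fit several places were counted was not given by the sources used here, which leaves these values uncertain.

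Polycomb genes, which repress developmental genes in embryonic stem cells, had a median of -0.07 over 24 expressed genes of 30. Cbx7, the chromodomain subunit that prevails in embryonic stem cells, was the only one 2-fold different, at 69.6 and 29.9 FPKM (-1.19) against 58.3 and 52.0 FPKM with LIF. Ezh2 stood at 46.6 and 33.7 FPKM (-0.46), Eed at 96.9 and 90.1 FPKM and Suz12 at 52.8 and 58.4 FPKM. Among 21 expressed imprinted genes the median was -0.10. At least 2-fold higher were 2, against 2.72% of all expressed genes, and lower were 2, against 3.82%. Rian, a non-coding RNA of the Dlk1-Dio3 domain, stood at 9.28 and 33.0 FPKM (1.72), with the normal library after withdrawal the low one of the 5. Slc38a4, an amino acid transporter, stood at 5.52 and 14.5 FPKM (1.25) and was also higher in labelled cells with LIF, at 4.25 and 11.3 FPKM. Sfmbt2 stood at 13.7 and 0.418 FPKM (-3.37), against 12.1 and 2.76 FPKM with LIF and 8.13 FPKM at 40 days. Gnas stood at 139 and 45 FPKM (-1.61), of which a non-coding transcript listed at 0 in the labelled library made up 70.6 FPKM in the normal one. Germline genes had a median of 0.33, with only 10 of 26 expressed. Of those, Rpl10l, a testis ribosomal protein, stood at 2.07 and 7.56 FPKM (1.48) and Mageb16 at 11.5 and 26.9 FPKM (1.16).

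Transcripts of the Y chromosome were lower in the labelled library, while their X-linked partners were not. Ddx3y, an RNA helicase gene from 597158 to 623056 on chromosome Y, stood at 11.8 and 0.013 FPKM (-3.66), against 11.8 and 0.0225 FPKM with LIF and 1.79 FPKM at 40 days. Uty, a relative of the histone demethylase Kdm6a, stood at 3.74 and 0.0113 FPKM (-2.23), and Eif2s3y, a translation initiation subunit, at 35.1 and 22.6 FPKM (-0.61). The labelled values of Ddx3y and Uty are below the 0.082 FPKM that 3 fragments on 1 kilobase would give. Of the 9 Y-linked genes listed, 4 were above 0 in both libraries and 3 were expressed. The partners Ddx3x (189 and 234 FPKM), Kdm6a (10.8 and 10.6 FPKM) and Eif2s3x (41.2 and 40.9 FPKM) were close to equal, and the median of the 7 X-linked partners was -0.02. Eif2s3y and Eif2s3x are similar in sequence, and how shared fragments were divided is not stated in the sources used here.

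Markers of other cell types were low on both sides, and their part in the differences above was not tested. The 8 fibroblast or feeder markers summed to 1.65 FPKM in the normal library and 4.95 FPKM in the labelled library, of which Thy1, also found on embryonic stem cells, made up 1.27 and 4.32 FPKM, and Postn was at 0 in both. The 7 endoderm markers summed to 1.91 and 2.67 FPKM, with Afp and Ttr at 0 in both, and the 6 trophoblast markers to 1.27 and 0.856 FPKM, with Elf5 and Prl3d1 at 0. The 6 mesoderm markers summed to 1.93 and 4.45 FPKM, of which Eomes made up 1.21 and 3.58 FPKM, and the 6 neural markers to 4.03 and 6.04 FPKM. The 5 markers of 2-cell-like cells summed to 0.0271 and 0.0253 FPKM, with Zfp352, Tcstv1 and Tcstv3 at 0. On the wider list of trophoblast and simple epithelia, the keratin Krt8 stood at 5.94 and 2.54 FPKM (-0.97) and the keratin Krt19 at 2.18 and 0.759 FPKM (-0.85). Lgals1, a galectin on the wider fibroblast list, stood at 60.8 and 27.3 FPKM (-1.13), with 77.8 and 34.8 FPKM with LIF.

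Secreted and surface signals had a median of -0.23 over 21 expressed genes. At least 2-fold higher was 1 and lower were 2, against 2.72% and 3.82% of all expressed genes. Efnb2, a membrane-bound ephrin ligand, stood at 4.18 and 15.1 FPKM (1.64), against 3.98 and 1.42 FPKM with LIF and 19.6 FPKM at 40 days. The platelet-derived growth factors Pdgfa and Pdgfc stood at 22.8 and 9.1 FPKM (-1.24) and at 6.63 and 1.98 FPKM (-1.36), and both were also lower in labelled cells with LIF (-0.54 and -1.36). Igfbp2, an IGF-binding protein, stood at 115 and 197 FPKM (0.78). In the interferon and antigen presentation list (15 expressed, median 0.11), Irf1 stood at 5.08 and 18.7 FPKM (1.70), at least 2-fold above each of the other 4 libraries. The beta-2 microglobulin gene B2m stood at 20.3 and 8.67 FPKM (-1.14) and the peptide transporter Tap1 at 2.58 and 0.598 FPKM (-1.16). Among 17 expressed immediate early genes the median ratio was -0.34, with Jun at 5.15 and 1.55 FPKM (-1.27), Klf6 (-1.0) and Junb 2-fold lower, while Egr1 (25.4 and 24.0 FPKM) and Ier2 (113 and 109 FPKM) were level.

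Many of the most extreme ratios came from 1 library that stood apart from the other 4. Of the 249 higher genes, in 48 the normal library was at least 2-fold below each of the other 4 libraries, and in 18 the labelled library was at least 2-fold above each of them. Of the 350 lower genes, in 46 the labelled library was at least 2-fold below the other 4 and in 9 the normal library was at least 2-fold above them. For the remaining 183 higher and 295 lower genes neither library stood apart in that way.

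Ap1g1, a clathrin adaptor subunit, stood at 2.86 and 31.1 FPKM (3.05), with 26.3 and 30.8 FPKM with LIF, and so the normal library after withdrawal was the low one. Mtdh (2.97), Wdr82 (2.34), Dnajc5 (2.15), Snx5 (2.13) and Tab2 (2.12) had that arrangement as well. Among the lowest ratios, Rbpms2, an RNA-binding protein, stood at 110 and 19.8 FPKM (-2.41), where the other 3 libraries held 42.0 to 120 FPKM, and so the labelled library was the low one. Fxyd6 (-2.34) and Syngr1 (-2.44) were also low in the labelled library alone. Other low genes had a second low library. Psma2, a proteasome subunit, stood at 152 and 24.6 FPKM (-2.58) and at 22.1 FPKM at 40 days, and Pcolce, a procollagen C-proteinase enhancer, at 36.2 and 5.3 FPKM (-2.56) and at 3.93 FPKM at 40 days. Anxa3, an annexin, stood at 8.73 and 0.491 FPKM (-2.71) and was low in labelled cells with LIF too, at 6.79 and 1.29 FPKM.

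**Figure D4:**
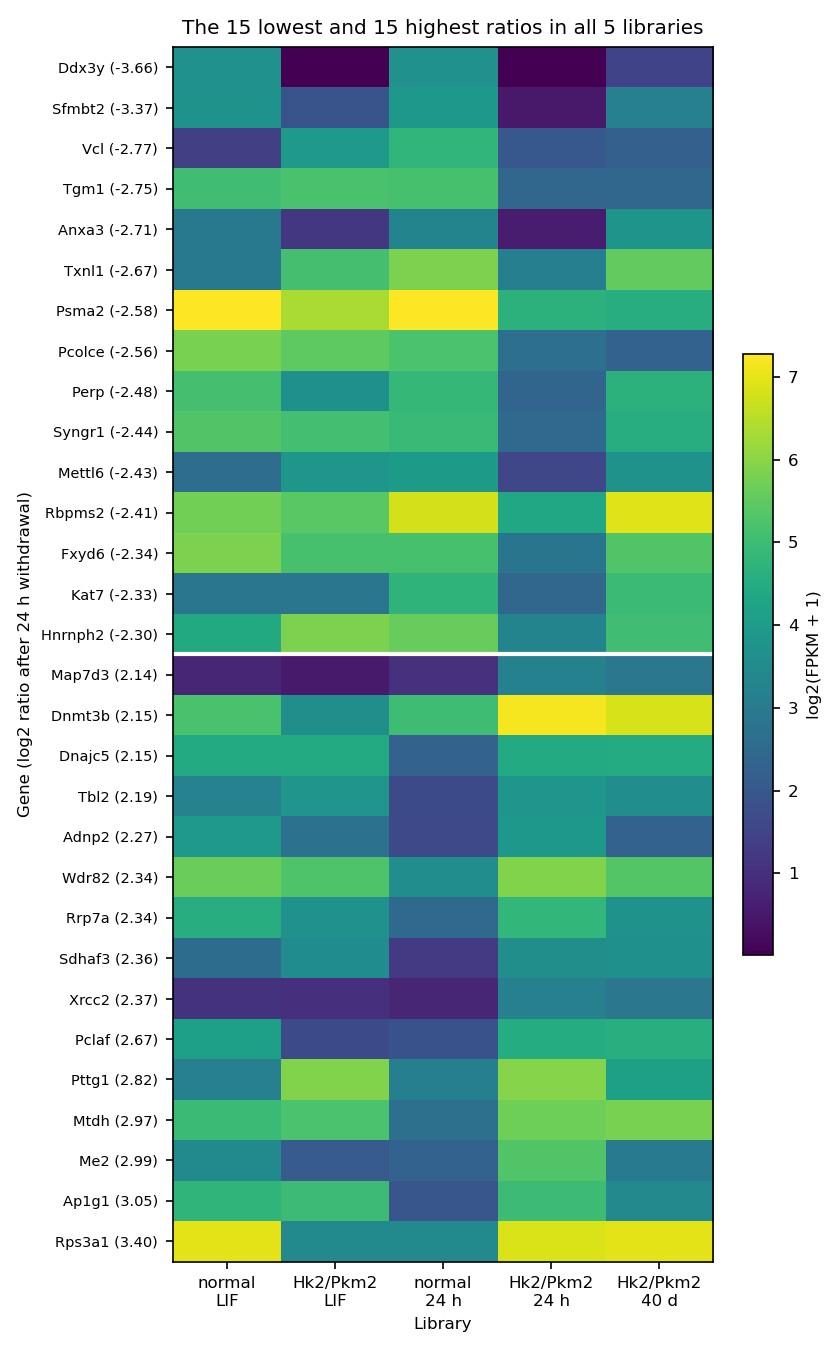
Level of the 15 genes with the lowest and the 15 with the highest log2 ratio, among expressed genes above 0 in all 5 libraries (clone names and small RNAs left out), as colour on the log2(FPKM + 1) scale; columns are the 5 libraries and the ratio after withdrawal stands beside each gene. In Mtdh, Wdr82 and Dnajc5 the normal library after withdrawal is the darkest cell of the row, and in Rbpms2 and Syngr1 the labelled library after withdrawal is.

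By absolute difference, the genes with the largest gain in the labelled library included Pebp1, an inhibitor of the Raf kinase pathway, at 41.6 and 172 FPKM (2.02), against 167 and 161 FPKM with LIF and 22.8 FPKM at 40 days. Phb2, a mitochondrial prohibitin, stood at 171 and 287 FPKM (0.74) and Set, a histone chaperone, at 155 and 328 FPKM (1.08), although a transcript of Set was listed at 0 in the normal library. On the lower side, Hdgf, a DNA-binding growth factor, stood at 356 and 165 FPKM (-1.10), Pfn1 (profilin) at 1210 and 844 FPKM (-0.51) and Dppa5a, an RNA-binding protein of pluripotent cells, at 998 and 794 FPKM (-0.33). Reference genes had a median of 0.002 over 11 expressed genes, but B2m was 2-fold lower.

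The same contrast in the cells kept with LIF uses 2 other libraries. There, of the 9168 genes, a ratio of 2-fold or more was seen upward in 315 (3.44%) and downward in 418 (4.56%). Of the 249 genes higher after withdrawal, 39 were higher with LIF too, 15.7% of these and 12.4% of the 315, while 26 (10.4%) were 2-fold lower with LIF. Of the 350 lower genes, 74 were lower with LIF too, 21.1% of these and 17.7% of the 418, and 29 (8.29%) were 2-fold higher with LIF. The others, 184 and 247 genes, were within 2-fold with LIF. Genes 2-fold different the same way in both cultures included Pttg1, Mydgf, Mbd3, Slc16a3 and Slc38a4 on the higher side, and Ddx3y, Uty, Chchd4, Ccn1, Perp, Ptpn14, Gadd45b, Dcxr, Dppa3 and Lgals1 on the lower side, none of which was tested. Genes 2-fold different after withdrawal with a log2 ratio between -0.26 and 0.23 with LIF included Tkt, Fgf5, Enpp2, Sall2, Slc7a3, Aen, Tfe3, Dnmt3l and Cbx7. With LIF, however, Fgf5 stood at 0.0685 and 0.0329 FPKM, Enpp2 at 0.139 and 0.0734 FPKM and Sall2 at 0.825 and 1.13 FPKM. At such levels the added 1 FPKM draws a ratio toward 0, so for these genes it does not show equal levels with LIF.

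**Figure D5:**
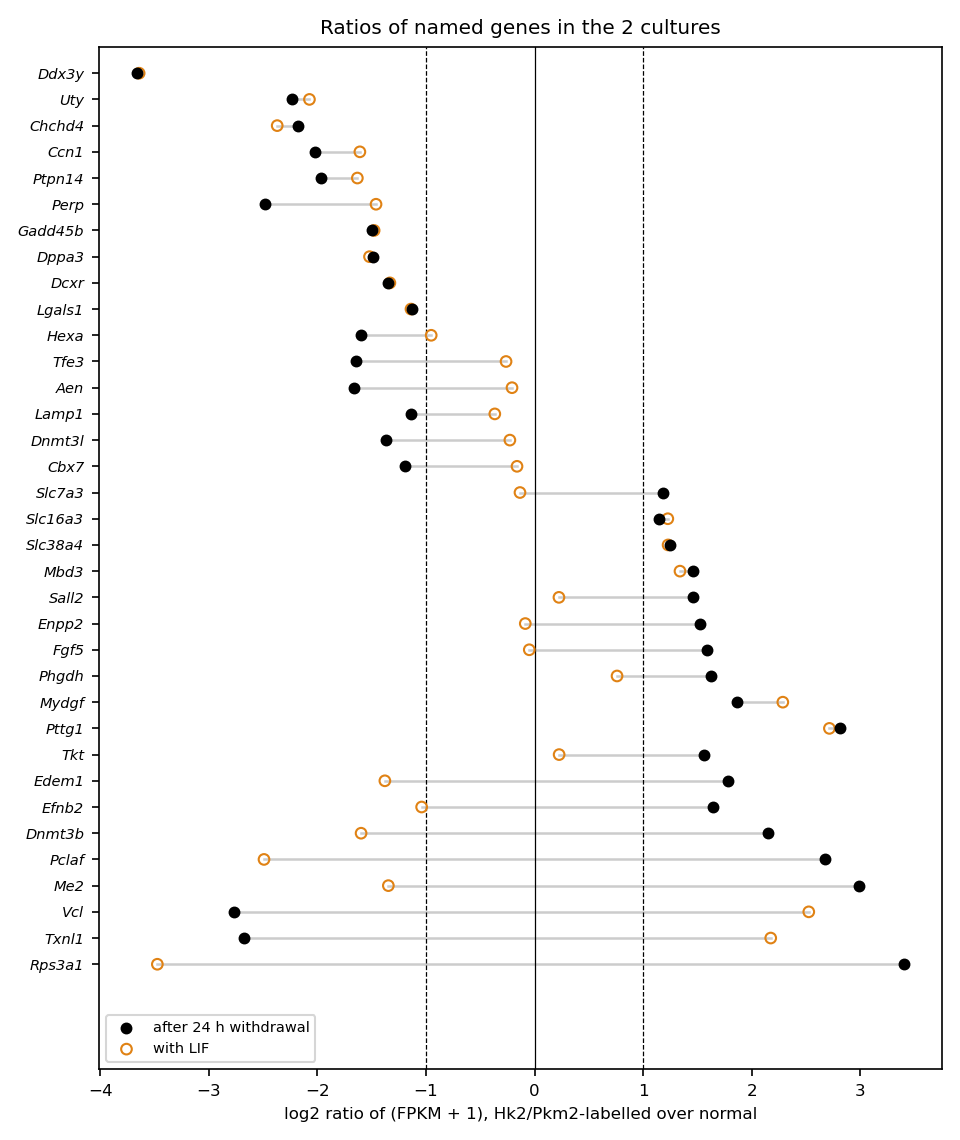
Log2 ratio of 35 named genes after the 24 hour withdrawal (black dots) and with LIF (open orange circles), Hk2/Pkm2-labelled over normal, with dashed lines at 2-fold and a grey line joining the values of a gene. From Ddx3y to Lgals1 both ratios are below -1, and in the lowest 8 rows, such as Dnmt3b, Me2 and Rps3a1, the 2 ratios are at least 2-fold in opposite directions.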

How the data were processed

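RNA sequencing was analysed from the table of transcript levels that the authors deposited, in FPKM per RefSeq transcript. Per the submitters' processing notes, TopHat2 2.0.7, Cufflinks 2.0.2 and the build mm9 were used; how fragments that fit several places were counted is not stated in the sources used here. FPKM are not counts, so no count test was possible, and with 1 library per group no test of any kind was made. Of 28698 transcripts, 28066 were matched to a gene symbol through RefSeq (GRCm38.p6, names, promoters and overlaps only). Left out were 337 genes with a transcript that had a hyphen in place of an FPKM value. FPKM were summed per gene with pandas 2.3.3 and numpy 2.4.6, and ratios used a pseudocount of 1 FPKM. Expressed means a mean of at least 1 FPKM over the 5 libraries, and called means at least 2-fold, without a test. The counting was tested on simulated data. Gene coordinates are those of GENCODE vM1 on mm9. The gene lists (44) and the genes compared were chosen with earlier results of these data known. Named are Hk2 and Pkm, the 20 highest and 20 lowest ratios, list members at least 1.5-fold different or else up to 4 with the highest mean FPKM, the 10 largest FPKM differences each way, and the Y-linked genes with their X-linked partners; other list members are given as values for their role. The 20 highest and 20 lowest were taken among expressed genes above 0 in all 5 libraries, with clone names and small RNAs left out. Another 11 settings were tried. Some genes named by this rule are not reported here.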

Additional observations from a re-analysis of the deposited data

Results flagged for a closer look

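Some genes were at least 2-fold different between labelled and normal cells in both cultures, but in opposite directions. Each direction rests on 1 library a side, and the difference between the cultures was not tested. Dnmt3b had a log2 ratio of 2.15 after withdrawal and -1.60 with LIF. Rps3a1, a ribosomal protein gene, had 3.40 and -3.47, and Me2, the mitochondrial malic enzyme, 2.99 and -1.35. Pclaf, a PCNA-binding protein, had 2.67 and -2.49. Edem1 had 1.78 and -1.38, and the ephrin Efnb2 1.64 and -1.04. The reverse order was seen for vinculin (Vcl), at -2.77 after withdrawal and 2.53 with LIF, and for Txnl1, a thioredoxin-like protein, at -2.67 and 2.17. Ndufs8, a complex I subunit, had -1.66 and 2.68, and Sparc -2.96 and 6.24; both were listed at 0 in the normal library with LIF, so their ratios with LIF depend on the pseudocount and are no measure of size.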

How the results depend on the processing

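No paired analysis was possible because each group is 1 library, and for the same reason no library could be left out in turn. The counts of genes at least 2-fold higher and lower (249 and 350) came to 379 and 584 with a pseudocount of 0.1 FPKM, 96 and 124 with 5 FPKM, and 158 and 232 when a mean of at least 5 FPKM was required. With genes at 0 in 1 library included, 402 were higher and 497 lower. Among the 249 and 350 genes of the main setting the share of higher was 41.6%, and it was 47.8% after quantile normalization. The other settings moved neither count by over 1.5 times; among them were genes with 1 transcript only (196 and 271) and leaving out genes with a transcript at 0 in 1 library (224 and 317), both chosen after seeing the data. The median of the Wnt list came to -0.023 and that of the fibroblast list to 0.024 without the filter on low values, and those of DNA methylation and pentose phosphate to -0.04 and -0.029 at a mean of at least 5 FPKM, the opposite sign each time; fewer or more genes entered these medians. Medians nearer to 0 than 0.1 also turned sign: Myc family to -0.07 and endoderm to -0.018 at a mean of at least 5 FPKM, G1 and S genes to -0.015, ER chaperones to 0.002 and reference genes to -0.027 with 1-transcript genes only, hypoxia targets to 0.039 and X-linked partners to 0.031 after quantile normalization, and the respiratory chain to 0.009 after centring on the median. The germline median exceeded the primed epiblast one with a pseudocount of 0.1 FPKM (0.433 and 0.391), at a mean of at least 5 FPKM (0.853 and 0.157) and with 1-transcript genes only (0.322 and 0.284). Of 2947 ratios of named genes recomputed, 64 dropped under 2-fold and 36 passed it; no gene at least 2-fold different turned sign, whereas Eif2s3x went from -0.01 to 0.03 after quantile normalization. Sequencing depth limits genes below about 0.08 FPKM.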
